A study of Rattus norvegicus with 15 samples.

Results

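The comparison set the response of rat dorsal root ganglion (DRG) cells after 6 h of dbcAMP against their response after 1 h. It used the 3 arrays labelled 6 h and the 3 labelled 1 h, 6 of the 15 arrays of the series, and was made for every probe as the mean log2 ratio at 6 h minus the mean at 1 h. DRG of the L4 and L5 levels were taken from juvenile rats, and the dissociated cells were kept in Sato medium. They received 1.5 mM dibutyryl cAMP (dbcAMP), an analog of cAMP that crosses the cell membrane, or medium alone. The labels name dishes coated with poly-L-lysine or myelin without saying which array had which, and give no genotype, strain or sex. On all of these arrays Cy5 marked the treated and Cy3 the untreated RNA, so a positive log2 ratio means more signal in treated cells, and a dye bias of a probe that is the same at both times drops out of the difference. The labels give a time for the treated channel only. The first group is labelled 1 h, although the treatment description of the labels lists 0 h in its place. A dissociated ganglion holds sensory neurons, satellite and Schwann cells, fibroblasts and blood-derived cells, and a ratio gives no level, so the labelled cell type could not be checked against the level of its markers.

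Inside the cell cAMP activates protein kinase A, which phosphorylates the transcription factor CREB. CREB binds the cAMP response element in promoters and switches on a first set of genes, among them other transcription factors and secreted peptides. In sensory neurons a rise of cAMP is known to promote the growth of axons over inhibitory substrates such as myelin, and new transcription takes part in it. Responses that need a first round of new proteins come later than those that CREB starts directly, so an early and a later time can hold different genes.

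Of 5088 probes on the array, 5038 were measured on 2 or 3 arrays of each time and were tested with limma, in a fit that took the spread of each probe from all 15 arrays. Adjusted p-values are those of Benjamini and Hochberg over the 5038 probes, and a probe was called at an adjusted p under 0.05. The log2 ratios had an SD across probes of 0.357 to 0.434 on 5 of the 6 arrays and of 0.642 on array 3 of 6 h, and 28 to 89 probes had no ratio on an array. Correlations between arrays across probes, which are not independent replicates, were 0.409 to 0.483 within 1 h, 0.236 to 0.500 within 6 h and 0.158 to 0.450 between the times. Nothing in the sources says that arrays of the same time were separate cultures. A p-value therefore weighs a difference against array-to-array spread, possibly only technical, and having 3 arrays a time limits precision. In a culture of several cell types fewer cells of a type and less RNA per cell cannot be told apart, nor can a ratio tell a change of the treated signal from one of the untreated signal.

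The response differed between 6 h and 1 h at 7 probes of 5038 (0.139%, limma, adjusted p under 0.05). At 5 probes the ratio rose (0.0992%), those of Inhba, Tnfaip6, Vgf, Sod3 and the unnamed probe 7E10, and at 2 it fell (0.0397%), those of Ccl2 and the unnamed probe 17H06. Without adjustment 258 probes had a p under 0.05 (5.12%), 133 of them higher at 6 h (2.64%) and 125 lower (2.48%). At 334 probes (6.63%) the 3 arrays of 6 h all lay above the 3 of 1 h, and at 289 (5.74%) all below. Differences ran from -2.99 to 3.23, but the 5th and 95th percentiles were -0.46 and 0.47, and the median standard error of a difference was 0.24. The mean log2 ratio lay farther from 0 at 6 h than at 1 h for 57.9% of all probes tested, and for 6 of the 7 called probes. With arrays 1 and 2 of 6 h alone the share over all probes was 55.2%. The wide spread of array 3 enters the first share, and a mean of 2 arrays varies more than a mean of 3. Neither share can therefore tell a larger response from more noise at 6 h. The called probes were picked by their difference, so their count adds nothing to this. The exception among the called probes was Ccl2, whose ratio crossed from above 0 to below it. Counted without the 6 arrays of the series whose SD was over 0.6, a setting chosen after the data were seen, 15 probes were called, 12 higher and 3 lower, and they held 5 of the 7. In a fit of the 6 arrays of 1 h and 6 h alone 5 probes were called, 4 higher and 1 lower, and they held 3 of the 7. There Vgf, Sod3 and probe 7E10 had an adjusted p of 0.222 each and Ccl2 of 0.247.

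**Figure D1:**
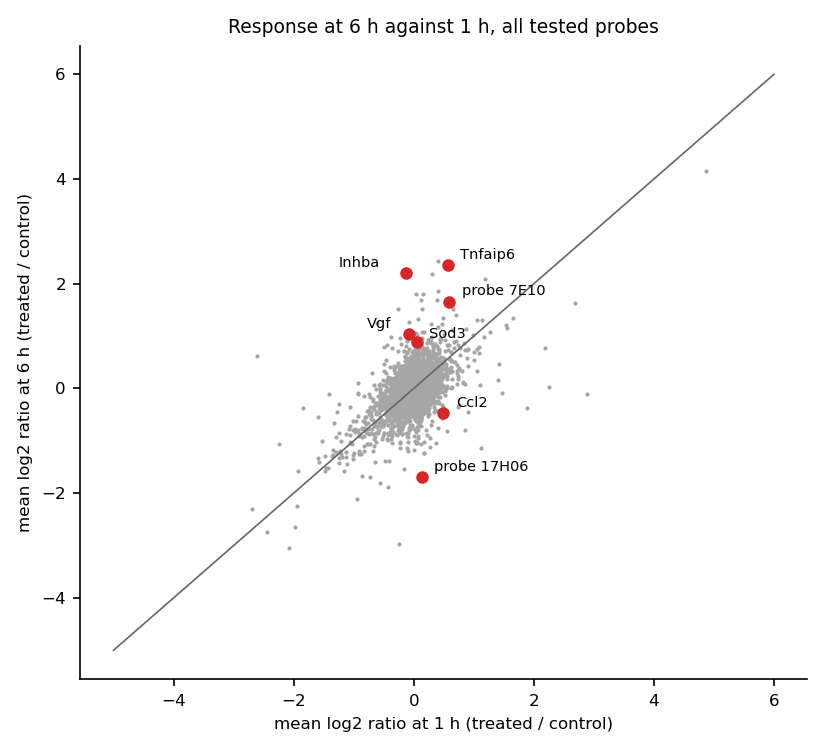
Mean log2 ratio of treated over control at 6 h (vertical axis) against that at 1 h (horizontal axis) for 5038 probes, each a grey point, with the 7 called probes in red and the line of equal values. Inhba, Tnfaip6, Vgf, Sod3 and probe 7E10 lie above the line, Ccl2 and probe 17H06 below it.

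The promoters of 4 genes are shown here, Inhba, Tnfaip6 and Vgf because they are called genes whose promoter the RefSeq table of build GRCr8 held, and Il6 because its arrays lay close together within each time and far apart between them. Each line gives the 250 bases before the start of the gene, read 5′ to 3′ along the gene, and capitals mark the palindromic cAMP response element TGACGTCA.
Inhba, chr17:53804509-53804758, minus strand: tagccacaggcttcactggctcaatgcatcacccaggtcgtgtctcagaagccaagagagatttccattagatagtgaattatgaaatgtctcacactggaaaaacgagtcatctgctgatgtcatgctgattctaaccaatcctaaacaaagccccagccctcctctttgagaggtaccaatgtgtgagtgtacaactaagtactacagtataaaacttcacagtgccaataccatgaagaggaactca
Tnfaip6, chr3:56911148-56911397, plus strand: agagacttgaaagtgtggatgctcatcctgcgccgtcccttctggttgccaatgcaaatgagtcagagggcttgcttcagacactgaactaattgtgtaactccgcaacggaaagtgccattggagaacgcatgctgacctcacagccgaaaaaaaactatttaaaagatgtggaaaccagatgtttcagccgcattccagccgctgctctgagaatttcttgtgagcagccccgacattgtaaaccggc
Vgf, chr12:25277021-25277270, minus strand: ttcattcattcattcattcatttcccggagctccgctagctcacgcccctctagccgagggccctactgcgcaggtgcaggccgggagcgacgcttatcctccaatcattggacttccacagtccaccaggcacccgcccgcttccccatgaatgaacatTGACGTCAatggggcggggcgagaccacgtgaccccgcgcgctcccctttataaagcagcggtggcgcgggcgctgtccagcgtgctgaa
Il6, chr4:5894576-5894825, minus strand: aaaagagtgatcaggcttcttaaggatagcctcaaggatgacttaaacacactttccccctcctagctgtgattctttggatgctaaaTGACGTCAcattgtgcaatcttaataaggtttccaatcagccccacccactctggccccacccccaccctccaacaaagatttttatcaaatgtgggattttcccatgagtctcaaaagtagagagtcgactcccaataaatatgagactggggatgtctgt
The element began 90 bases before the start of Vgf and 162 bases before that of Il6. Its letters were not in the windows of Inhba and Tnfaip6. In the whole table, where a promoter was 250 bases before to 50 after the start, 612 of 33469 promoters (1.83%) held TGACGTCA. Its first 5 letters, TGACG, stood on either strand in 7097 (21.2%), which include those with the full element. Of 53 genes named in these results 35 had a promoter in the table. The full element was in 3 of them, Vgf, Il6 and Ldha, and TGACG in 10. A match describes the sequence and is no test of binding.

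Inhba encodes the inhibin beta A subunit, which pairs to form activin A, a secreted factor of the TGF-beta family. Its log2 ratio was 0.01, 0.09 and -0.50 on the arrays of 1 h and 2.29, 2.37 and 1.94 on those of 6 h. Treated and untreated cells thus gave like signals at 1 h on 2 arrays, and all 3 arrays of 6 h stood far above them. The difference was 2.34 on the log2 scale (SE 0.27, 95% interval 1.76 to 2.91, adjusted p = 0.00113), a ratio 5.05 times as high. The mean log2 ratio was 0.72 at 3 h and 1.27 and 1.25 at 12 and 18 h, so that the mean of 6 h was the highest of the 5. When each of the 6 arrays was left out in turn the adjusted p stayed between 0.00219 and 0.0118.

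Tnfaip6 encodes TSG-6, a secreted protein that binds hyaluronan and is induced in inflammation. Its log2 ratio was 0.55, 0.62 and 0.52 at 1 h and 2.31, 2.58 and 2.19 at 6 h. The arrays of each time lay close together, and those of 1 h were already above 0. The ratio rose by 1.80 (SE 0.19, 95% interval 1.38 to 2.21, adjusted p = 0.000773), which is 3.47 times as high. The mean was 1.45 at 3 h, 2.07 at 12 h and 3.14 at 18 h. The adjusted p was 0.00174 to 0.00852 with an array left out, and 0.153 when all arrays were scaled to a common spread, where the difference was 1.43.

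Vgf encodes a secreted neuropeptide precursor of neurons that growth factors and CREB induce. At probe 1D09 the log2 ratio was -0.07, -0.07 and -0.11 at 1 h and 1.39, 0.93 and 0.78 at 6 h. No response was seen at 1 h, and every array of 6 h was well above. The difference was 1.12 (SE 0.20, 95% interval 0.70 to 1.54, adjusted p = 0.0444), a ratio 2.17 times as high. The other probe of Vgf, 52D09, had log2 ratios of 0.07, -0.01 and -0.10 at 1 h and 0.26, -0.02 and 0.35 at 6 h, with overlapping arrays and a difference of 0.21 (adjusted p = 0.997). The probes of Vgf therefore disagreed, and which of them follows the transcript was not tested. Without any one array other than array 3 of 6 h the adjusted p of 1D09 was 0.0846 to 0.230.

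Sod3 is extracellular superoxide dismutase, an enzyme that removes superoxide outside the cell. Its log2 ratio was 0.14, -0.10 and 0.11 at 1 h and 0.88, 0.90 and 0.89 at 6 h. The 3 arrays of 6 h were nearly equal and none came near those of 1 h. The ratio rose by 0.84 (SE 0.13, 95% interval 0.57 to 1.11, adjusted p = 0.0174), which is 1.79 times as high. The mean was 0.32 at 3 h, 1.06 at 12 h and 0.97 at 18 h. Without array 2 or 3 of 1 h, or array 1 or 2 of 6 h, the adjusted p was 0.0611 to 0.108.

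Ccl2 is a chemokine that draws monocytes. At probe 26C01 its log2 ratio was 0.77, 0.32 and 0.39 at 1 h and -0.39, -0.48 and -0.53 at 6 h. All arrays of 1 h were above 0 and all of 6 h below at this probe. A dye bias drops out of the difference but not of the position against 0 at a single time. Whether the response turned from more to less signal in treated cells was therefore not tested. The ratio fell by 0.96 (SE 0.16, adjusted p = 0.0369), to a ratio 1.94 times lower. At the other probe, 52C04, the log2 ratio was 0.08, -0.01 and -0.03 at 1 h and -0.34, -0.63 and -0.61 at 6 h. Its arrays did not overlap either, and the difference was -0.54 (adjusted p = 0.427). For probe 26C01 the adjusted p was 0.0569 to 0.230 with any one array left out.

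Both unnamed probes had clear arrays. Probe 17H06 had log2 ratios of -0.08, 0.28 and 0.20 at 1 h and -1.52, -1.75 and -1.78 at 6 h, and its ratio fell by 1.82 (SE 0.16, adjusted p = 0.000128), the smallest p of the comparison. The mean was -0.31 at 3 h, -1.46 at 12 h and -1.55 at 18 h. Probe 7E10 had log2 ratios of 0.37, 0.85 and 0.54 at 1 h and 1.60, 1.52 and 1.85 at 6 h, and its ratio rose by 1.07 (SE 0.18, adjusted p = 0.0444). Its mean was 1.62 at 3 h and returned towards 0 later, with 0.42 at 12 h and 0.21 at 18 h. With an array left out the adjusted p was 0.000431 to 0.00193 for 17H06 and 0.0542 to 0.254 for 7E10.

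**Figure D2:**
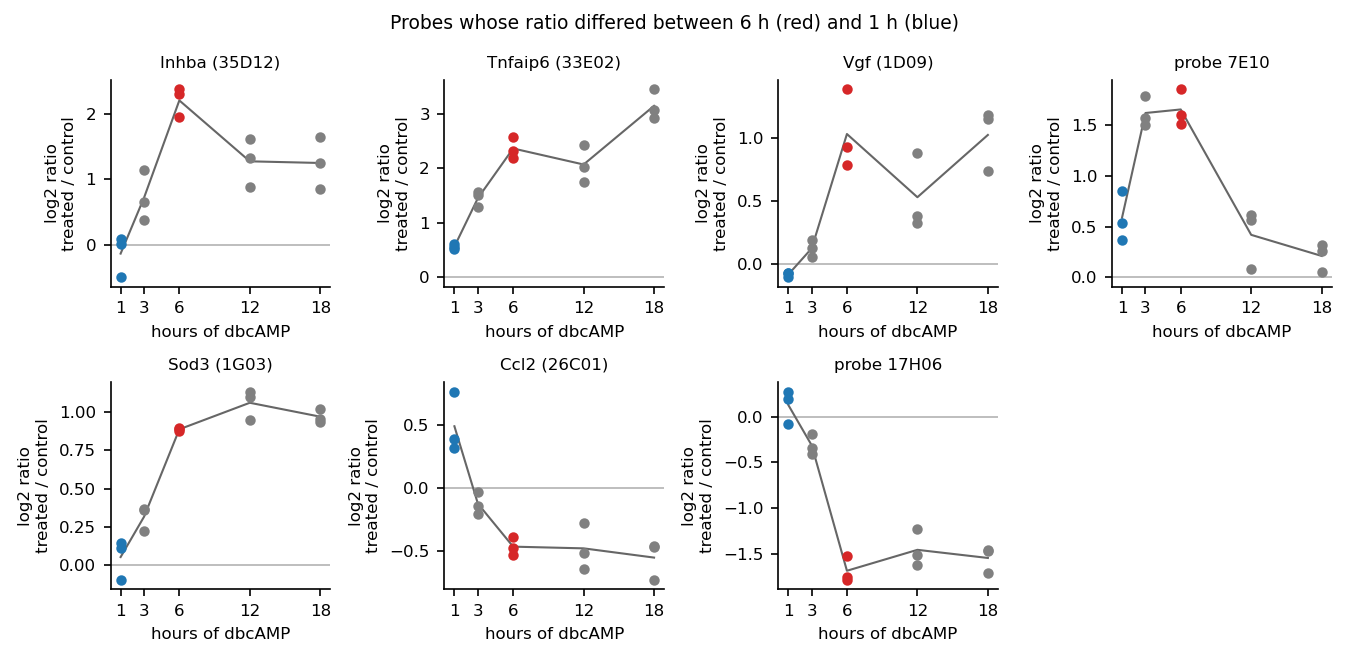
Log2 ratio of treated over control on each of the 15 arrays (points) against hours of dbcAMP for the 7 called probes, with 1 h in blue, 6 h in red, other times in grey and a line through the means. Each vertical axis has its own range. The mean of Inhba is highest at 6 h, that of Tnfaip6 at 18 h, and that of probe 7E10 is about as high at 3 h as at 6 h.

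Where fewer than 10 named probes were called in a direction, the list was filled to 10 with the named probes of smallest p whose arrays did not overlap. These did not pass the test. Among those higher at 6 h, Phlda1, which encodes a protein with a pleckstrin homology-like domain, had log2 ratios of 0.07, 0.39 and 0.43 at 1 h and 1.42, 1.26 and 1.03 at 6 h, a difference of 0.94 (adjusted p = 0.062). Timp1, an inhibitor of matrix metalloproteinases, had -0.12, -0.14 and -0.06 and then 0.66, 0.60 and 0.46, a difference of 0.68 (adjusted p = 0.113). The arrays of both genes were even within each time. Arr3, a cone arrestin, differed by 0.94 (adjusted p = 0.133) and Cbr1, a carbonyl reductase, by 0.80 (adjusted p = 0.209).

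Among those lower at 6 h, the defensin Np4 had log2 ratios of -0.15, -0.09 and -0.08 at 1 h and -1.29, -0.86 and -1.25 at 6 h, a difference of -1.03 (adjusted p = 0.0988). Gng11, a gamma subunit of G proteins, differed by -1.18 (adjusted p = 0.112), with 6 h arrays at -0.75, -0.74 and -1.67. Defa5, a further defensin, was at -0.01, 0.09 and 0.42 and then at -1.85, -1.65 and -0.20, a difference of -1.40 (adjusted p = 0.323). Array 3 of 6 h, the array with the wide spread, stood apart from the other 2 for Defa5. Without it the difference was -1.92 (adjusted p = 0.00219). The adjacent probes 18C04 and 18C05 of Np4 and Defa5 shared a plate, and a signal common to both was not tested. Nes, the intermediate filament nestin of immature neural cells, differed by -0.69 (adjusted p = 0.242). Col1a1, a chain of type I collagen, differed by -1.07 at probe 32D04 (adjusted p = 0.387) and by -0.26 at probe 33G03 (adjusted p = 0.96). The value of 32D04 rested on uneven arrays of 1 h, at -0.01, 1.41 and 0.87. Without array 1 of 1 h, the one nearest to those of 6 h, its difference was -1.45 (adjusted p = 0.0231). It passed the threshold in no other alternative.

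**Figure D3:**
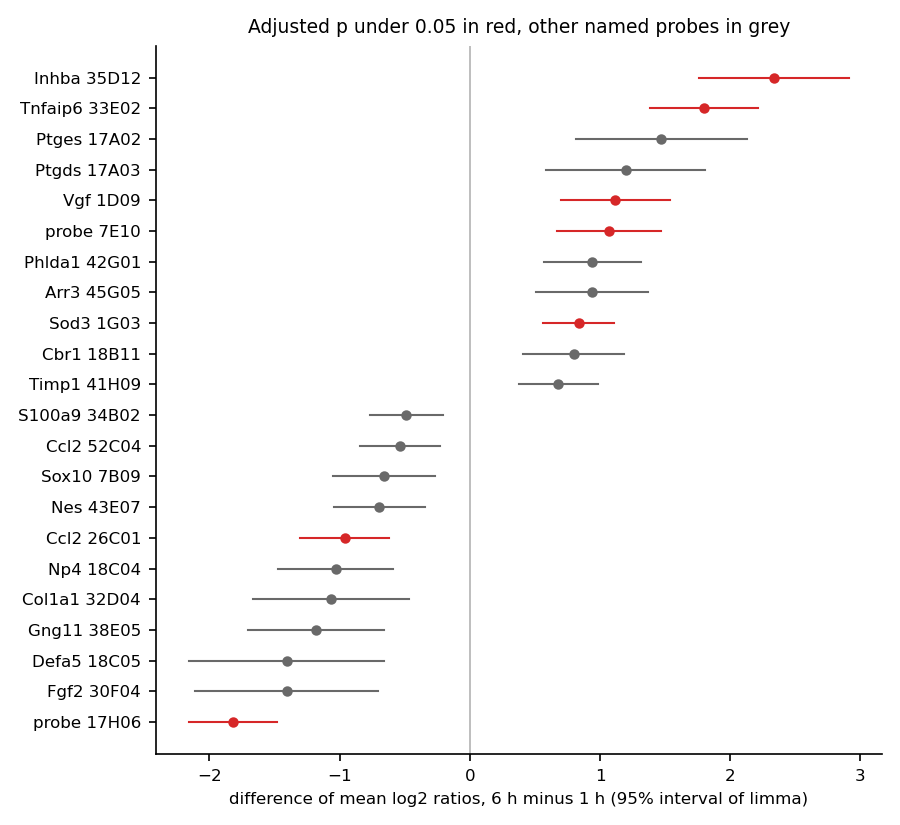
Difference of the mean log2 ratios, 6 h minus 1 h (horizontal axis), with its 95% interval from limma for the probes taken by size of p, called probes in red and the others in grey. Inhba has the highest value, 2.34, and probe 17H06 the lowest, -1.82, and the intervals of Fgf2 and Defa5 are the widest of the lower probes.

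The study named 15 genes for this treatment that had probes here, 20 probes in all. They were chosen on these samples, so their counts are not independent evidence. Of the 20 probes 2 were called higher and 1 lower, those of Vgf, Sod3 and Ccl2 above, and 8 had an unadjusted p under 0.05. The median difference over the 15 genes was 0.12, against -0.006 over all 4140 named genes tested. Il6, interleukin 6, had log2 ratios of 0.14, 0.23 and 0.09 at 1 h and 1.77, 1.90 and 1.76 at 6 h. Its arrays were as even as those of the called probes, and its difference was 1.66, but its SE was 0.67 (adjusted p = 0.848), since the fit took the spread from all times and the arrays of 18 h ran from -0.50 to 3.25. In a fit of the 6 arrays of 1 h and 6 h alone the adjusted p of Il6 was 0.00881, and without the 6 arrays of wide spread it was 0.00163. Slpi, a secreted inhibitor of leukocyte proteases, was at 0.11, 0.01 and -0.18 and then at 1.24, 0.79 and 0.71, a difference of 0.93 (adjusted p = 0.694). Atf3, a transcription factor of the stress and injury response, was at 0.10, 0.13 and 0.18 and then at -0.29, -0.39 and -0.48, a difference of -0.53 (adjusted p = 0.529). The arrays of Slpi and Atf3 did not overlap.

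For the other genes the study named, the times overlapped. Ldha, a subunit of lactate dehydrogenase, differed by 0.35, the 3 probes of the metallothionein Mt1 by 0.43, 0.27 and 0.03, and those of Igfbp5, an insulin-like growth factor binding protein, by -0.27 and 0.07. Htra1, a secreted serine protease, differed by -0.22, Grina, a membrane protein linked to glutamate receptors, by 0.12, and Egr1, an early transcription factor, by 0.13. Gap43, a growth cone protein, differed by -0.09 (95% interval -0.38 to 0.19), Fbln5, an extracellular matrix protein, by -0.03, and Arg1, the enzyme arginase, by 0.03 (95% interval -0.48 to 0.54). A small difference between these times says nothing of 18 h, the time the paper describes. There the mean log2 ratio was -0.59 for Gap43, 0.80 for Fbln5, 1.12 for Arg1 and 0.07 for Egr1. Egr1 was above 0 on all 6 arrays, at 0.32, 0.37 and 0.39 and then at 0.32, 0.92 and 0.24. Crem had no probe in the annotation used.

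Lists of genes were read by their counts against all probes, and describe these arrays only. Of all probes 0.139% were called and 5.12% had an unadjusted p under 0.05. Of 52 probes of 45 genes for cAMP synthesis, breakdown and protein kinase A, none was called, 4 had an unadjusted p under 0.05 and were higher at 6 h and none was lower (7.69%, against 5.12% of all probes). These were the phosphodiesterases Pde10a and Pde4b, which break down cyclic nucleotides, the adenylyl cyclase Adcy6 and the protein kinase A subunit Prkar1a. Pde4b was at 0.20, 0.11 and 0.10 at 1 h and at 0.94, 1.21 and 0.75 at 6 h, a difference of 0.82 (adjusted p = 0.697). Pde10a was at -0.20, -0.46 and -0.31 and then at 0.22, 0.42 and 0.61, a difference of 0.74 (adjusted p = 0.471). The arrays of both enzymes separated, from below 0 to above it for Pde10a. Adcy6 differed by 0.42, with overlapping arrays, and Prkar1a by 0.54. The median over the 45 genes was 0.04. Without array 3 of 6 h 2 of the 52 probes (3.85%) had an unadjusted p under 0.05, and so had 3.73% of all 5014 probes tested then, 114 higher and 73 lower.

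Of 44 probes of 40 known CREB targets, 2 were called, Inhba and Vgf, against 0.139% of all probes. An unadjusted p under 0.05 was found for 9, 7 higher and 2 lower at 6 h (20.5%, against 5.12% of all probes). The median difference over the 40 genes was 0.08. The mean over the list was 0.02 to 0.06 on the arrays of 1 h and 0.16 to 0.21 on those of 6 h, so the 2 times did not overlap. This mean includes the called Inhba and Vgf, and a mean without them was not computed. It therefore does not show a shift of the list as a whole. Penk, the precursor of enkephalins, was at -0.43, -0.36 and -0.17 and then at 0.35, 0.06 and 0.02, a difference of 0.46 (adjusted p = 0.848). Fgf2, basic fibroblast growth factor, was at 0.28, 0.60 and 0.23 at 1 h and at -1.44, -1.66 and -0.01 at 6 h, a difference of -1.41 (adjusted p = 0.234). Array 3 again stood apart, and without it the difference was -1.92 (adjusted p = 0.000629). For Gng11 above and for Ptges, Gpx1 and Cck below, array 3 of 6 h instead lay farther from those of 1 h than the others did. Leaving it out makes these differences smaller, and none of these genes was called without it. The values of Fgf2 and Defa5 without array 3 thus give only 1 direction of its effect. The mean of Fgf2 was above 0 at every other time, at 0.34, 0.31 and 0.73 at 3, 12 and 18 h.

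Of 29 probes of immediate early genes none was called. At an unadjusted p under 0.05, 1 was higher and 4 were lower (17.2%, against 5.12% of all probes). The lower ones included Atf3, Zfp36, which encodes an RNA-binding protein that destabilises messages of cytokines, and Klf6, a zinc finger transcription factor. Zfp36 was at 0.41, 1.47 and 0.56 at 1 h and at 0.14, 0.35 and -0.11 at 6 h, a difference of -0.69 (adjusted p = 0.759). Klf6 was at 0.55, 0.18 and 0.47 and then at 0.01, 0.06 and -0.08, a difference of -0.40 (adjusted p = 0.759). Both had their highest values at 1 h, where every array was above 0. Id1, an inhibitor of helix-loop-helix factors, was higher, with a difference of 0.57. The median over the list was 0.03, and without array 3 of 6 h only 2 probes were lower and none higher at that p (6.9%, against 3.73% of all probes in that fit).

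The gp130 cytokines and receptors signal through a shared receptor subunit encoded by Il6st. Of 19 probes none was called, and 2 were higher at an unadjusted p under 0.05 (10.5%, against 5.12% of all probes), Il6 and Il6st. Il6st was at 0.15, 0.09 and -0.19 and then at 0.64, 0.90 and 0.56, a difference of 0.68 (adjusted p = 0.71). The arrays of Il6 and of Il6st did not overlap between the times. The median over 17 genes was 0.21, and 0.09 without array 3 of 6 h. Of 69 probes of other cytokines, chemokines and proteins of inflammation 1 was called higher, Tnfaip6, and 1 lower, Ccl2. A further member, Csf3, granulocyte colony-stimulating factor, was at 0.18, 0.01 and 0.26 and then at 0.43, 1.00 and 0.74, a difference of 0.57 (adjusted p = 0.744). In this list 5 probes were higher and 2 lower at an unadjusted p under 0.05 (10.1%, against 5.12% of all probes). Its median was -0.04.

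Of 26 probes of prostaglandin synthesis and signalling none was called. At an unadjusted p under 0.05, 3 were higher (11.5%, against 5.12% of all probes), those of 3 enzymes. Ptges, the inducible synthase of prostaglandin E, was far below 0 at 1 h, at -1.50, -2.01 and -2.03, and at -0.65, -0.93 and 0.47 at 6 h, a difference of 1.47 (adjusted p = 0.113). Ptgs2, the inducible cyclooxygenase, was at 0.60, 0.46 and 0.42 and then at 1.59, 1.80 and 0.65 at probe 16H10, a difference of 0.85 (adjusted p = 0.816). At its other probe, 52D03, it was below 0 at 1 h and differed by 0.64 (adjusted p = 0.96). Ptgds, the synthase of prostaglandin D, was at -0.47, -0.38 and 0.18 and then at 1.54, 0.39 and 0.99, a difference of 1.20 (adjusted p = 0.255). The arrays of these enzymes separated, but those of 6 h were uneven, and the adjacent probes 17A02 and 17A03 of Ptges and Ptgds shared a plate. The median over 24 genes was -0.10, and 0.11 without array 3 of 6 h, so its sign rested on that array. Without the 6 arrays of wide spread Ptgs2 differed by 1.20 at 16H10 (adjusted p = 0.00549).

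Of 80 probes of growth factors and their receptors 1 was called, Inhba, and 2 were higher and 3 lower at an unadjusted p under 0.05 (6.25%), with a median of -0.01 over 65 genes. Fgfr1, a receptor for fibroblast growth factors, was at -0.01, 0.08 and 0.03 at 1 h and at 1.89, 1.50 and 2.03 at 6 h at probe 29C08, a difference of 1.77 (adjusted p = 0.347). Its arrays of 12 h ran from below 0 to above 1, and in a fit of the 6 arrays alone its adjusted p was 0.0140. The other 2 probes of Fgfr1 differed by 0.44 and 0.03, so the probes disagreed. Fgf5, a ligand of that family, was at 0.32, -0.14 and -0.08 and then at -1.12, -1.44 and -0.55, a difference of -1.07 (adjusted p = 0.65).

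**Figure D4:**
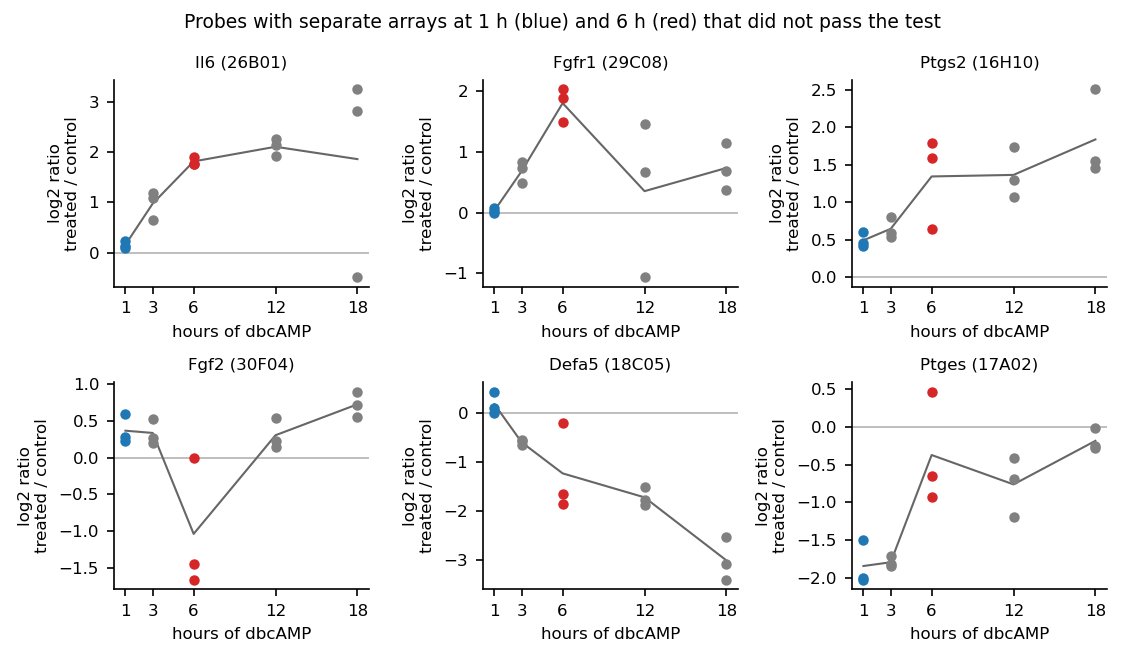
Log2 ratio (treated to control) on each of the 15 arrays (points) against hours of dbcAMP for 6 probes whose arrays of 1 h (blue) and 6 h (red) did not overlap but which did not pass the test, with a line through the means. Each vertical axis has its own range. For Il6 the arrays of 1 h and 6 h lie close together and those of 18 h far apart, and for Fgf2 and Defa5 array 3 of 6 h lies above the other 2.

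Of 36 probes of proteases and their inhibitors none was called. At an unadjusted p under 0.05, 3 were higher (8.33%, against 5.12% of all probes), Timp1, Slpi and Plat. Plat, tissue plasminogen activator, which cuts plasminogen, was at 0.19, 0.11 and 0.22 and then at 0.72, 0.83 and 0.69, a difference of 0.57 (adjusted p = 0.347). Its arrays were tight at both times, and its mean was 0.36, 0.68 and 1.04 at 3, 12 and 18 h. The median over the 35 genes was 0.06.

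Of 33 probes of antioxidant enzymes and metallothioneins 1 was called, Sod3. At an unadjusted p under 0.05, 3 were higher and 3 lower (18.2%, against 5.12% of all probes), with a median of -0.02. Gss, which completes glutathione, was at 0.13, 0.38 and 0.40 and then at -1.07, -0.19 and -0.61, a difference of -0.93 (adjusted p = 0.71). Gpx1, which uses glutathione to remove peroxides, was at 0.50, 0.60 and 0.09 and then at -0.02, -0.09 and -1.17, a difference of -0.83 (adjusted p = 0.752). Both differences were opposite in sign to that of Sod3, with uneven arrays of 6 h, and both genes were named for their small p. The means at 3, 12 and 18 h were 0.11, -0.08 and -0.06 for Gss and 0.52, 0.68 and 0.51 for Gpx1. Genes of the list differed by -0.93 to 1.19, so an opposition between groups of enzymes is not shown. Txnrd1, which keeps thioredoxin reduced, differed by 0.36 (adjusted p = 0.837). Without array 3 of 6 h 3 probes of the list were higher and 1 lower (12.1%, against 3.73% of all probes in that fit). Of 86 probes of 34 genes for glycolysis and the transport of glucose and lactate none was called and 3 were higher at an unadjusted p under 0.05 (3.49%), among them Slc16a1, a transporter of lactate, at -0.35, 0.21 and -0.08 and then at 0.65, 0.64 and 0.94, a difference of 0.82 (adjusted p = 0.559). The median of that list was 0.02.

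Of 31 probes of neuropeptides 1 was called, Vgf. At an unadjusted p under 0.05, 2 were higher and 1 lower (9.68%, against 5.12% of all probes). The lower one was Cck, cholecystokinin, at -0.79, -0.17 and -0.48 and then at -1.17, -0.84 and -2.12, a difference of -0.90 (adjusted p = 0.772). Every array of Cck was below 0 at both times. Of 56 probes of regeneration-associated genes 1 was called, again Vgf. At an unadjusted p under 0.05, 5 were higher and 3 lower (14.3%, against 5.12% of all probes), with a median of 0.07. This list shares Il6, Slpi, Atf3, Plat and Fgf2 with those above. Of 41 probes of the cytoskeleton and growth cone none was called, and only Nes had an unadjusted p under 0.05 (2.44%), with a median of -0.05.

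No probe was called in the lists that serve as a view of the rest of the cell. At an unadjusted p under 0.05, 7 of 114 probes of ion channels were higher and 1 lower (7.02%), 2 of 75 of ribosomal proteins higher and 1 lower, 1 of 33 of the respiratory chain higher and 1 lower, and 1 of 30 of the cell cycle higher. In cholesterol synthesis and uptake 1 of 14 was lower, and none of 33 for chaperones or of 6 for dual-specificity phosphatases had such a p. The medians of these lists were 0.03, 0.01, -0.06, 0.05, 0.09, 0.05 and 0.16, in the same order as named. The share for ribosomal proteins, 4%, and that for the respiratory chain, 6.06%, were near the 5.12% of all probes.

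Markers of the cell types of a ganglion were read in the same way. Of 30 probes of sensory neuron markers none was called and 1 was higher at an unadjusted p under 0.05 (3.33%), and the median over 26 genes was 0.03. Of 26 probes of markers of Schwann cells and satellite glia none was called and 1 was lower (3.85%). It was that of Sox10, a transcription factor of glia, at 0.44, 0.37 and 0.76 and then at -0.21, 0.13 and -0.33, a difference of -0.66 (adjusted p = 0.471). Over the 26 probes of glia, the arrays of 6 h all lay above those of 1 h at 2 and below them at 2, with Sox10 among the latter. Over all probes tested these shares were 6.63% and 5.74%. Sox10 therefore does not stand for the list, whose median over 22 genes was -0.02. The mean log2 ratio of the list on an array ran from -0.01 to 0.03 at 1 h and from 0.02 to 0.12 at 6 h for neurons, and from 0.01 to 0.07 and from 0.04 to 0.12 for glia. For both cell types the arrays of the 2 times overlapped, close to 0.

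Of 28 probes of fibroblast markers none was called. At an unadjusted p under 0.05, 2 were higher and 3 lower (17.9%, against 5.12% of all probes). Without array 3 of 6 h 1 was higher and 3 were lower (14.3%, against 3.73% of all probes in that fit). The median over 25 genes was -0.12, and the mean of the list ran from 0.02 to 0.12 at 1 h and from -0.04 to 0.03 at 6 h. Mgp, matrix Gla protein, was at 0.17, -0.03 and 0.25 and then at -0.22, -0.25 and -0.41, a difference of -0.42 (adjusted p = 0.759). Fmod, a collagen-binding proteoglycan, lay the other way, at -0.12, -0.32 and -0.16 and then at 0.10, 0.20 and 0.80, a difference of 0.57 (adjusted p = 0.827). With Col1a1 lower and Timp1 higher, the members named here had values in both directions. Over the 28 probes, the arrays of 6 h all lay below those of 1 h at 8 and above them at 2. Over all probes tested these shares were 5.74% and 6.63%.

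Of 21 probes of macrophage and other leukocyte markers none was called. At an unadjusted p under 0.05, 3 were lower (14.3%, against 5.12% of all probes), Defa5, S100a8 and S100a9. S100a8 and S100a9 form calprotectin, which is abundant in neutrophils. S100a8 was at 0.04, -0.14 and 0.00 and then at -0.81, -0.90 and -0.39, a difference of -0.67 (adjusted p = 0.526). S100a9, its partner, was at 0.16, -0.12 and -0.04 and then at -0.38, -0.51 and -0.56, a difference of -0.49 (adjusted p = 0.461). Both partners had separate arrays. The mean log2 ratio of the list ran from 0.01 to 0.09 at 1 h and from -0.10 to 0.00 at 6 h, but its median difference over 19 genes was 0.02. This mean includes Defa5, S100a8 and S100a9, and a mean without them was not computed. It therefore does not show a shift of the list as a whole. The part of such cells in the lower values of Np4 and Defa5 was not tested. Of 14 probes of endothelial markers none was called and 1 was higher at an unadjusted p under 0.05 (7.14%), with a median of 0.05.

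**Figure D5:**
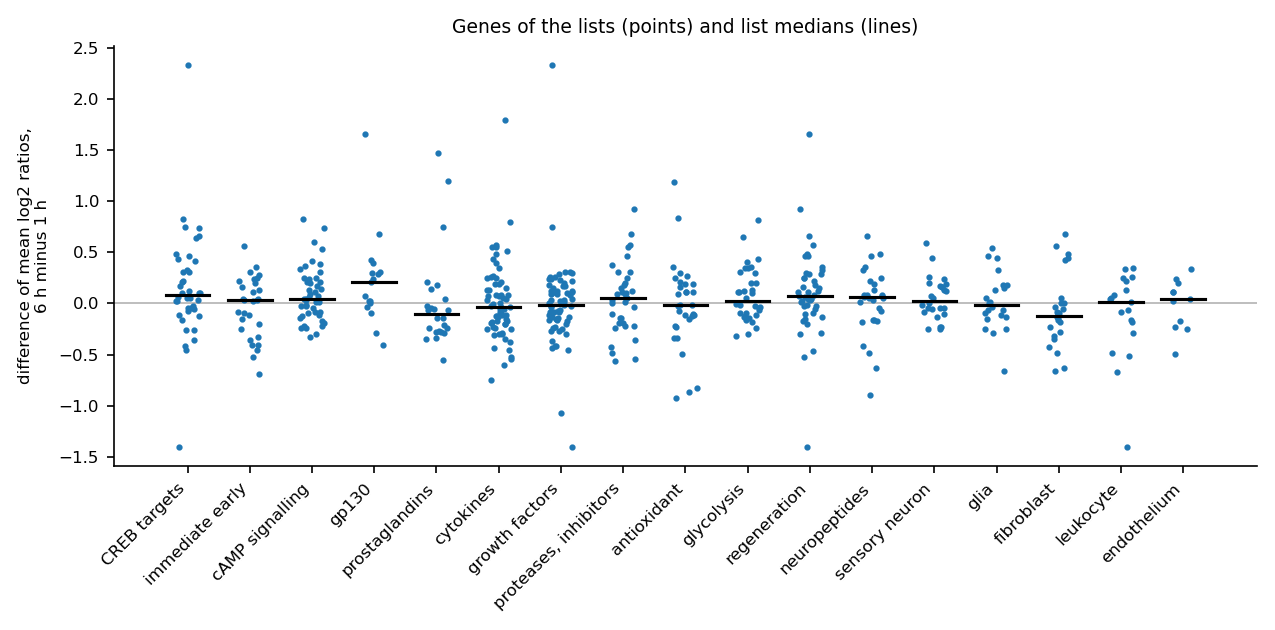
Difference of the mean log2 ratios, 6 h minus 1 h (vertical axis), of each gene (points, the mean of its probes) in 17 of the gene lists, with the median of each list as a black line. The medians lie between -0.12 for fibroblast markers and 0.21 for the gp130 list, while single genes reach 2.34 (Inhba) and -1.41 (Fgf2).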

How the data were processed

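The values were linear ratios of treated (Cy5) over control (Cy3) signal, 1 per probe and array, as the authors deposited them. How they corrected background, normalized and filtered is not given in the sources used here. Scanner intensities were not used. Array medians of the ratio were 0.997 to 1.02, so no centring was applied to the log2 ratios. Of 5088 probes, 4423 had 1 gene symbol in the platform annotation, which can be old, 2 had several and 663 had none. Gene identifiers of 4375 probes matched the GRCr8 gene table, with no change of symbol.

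All 15 arrays entered 1 fit with a mean per time (limma 3.58.1 in R 4.3.3, lmFit, contrasts.fit and eBayes), contrasted as 6 h minus 1 h, two-sided, with Benjamini-Hochberg adjustment over the 5038 probes with at least 2 of 3 ratios at both times and a threshold of 0.05. Each probe was tested on its own, and probes of 1 gene were averaged for list medians. The fit was also run on simulated data that gave a probe the same SD on every array. These data do not copy the unequal spread of the real arrays, so the run cannot show how the fit deals with it. Genes were named by this rule: the called named probes, filled to 10 a direction by the smallest p among probes whose arrays did not overlap, the genes the study names, up to 4 members of each list with the smallest p, and the other probes of these genes. Not all are described. The comparison, the lists and the rule were chosen with earlier results of these data known. Alternatives were the 6 arrays alone, a replicate block, centring on array or plate medians, scaling, array weights, other filters on missing ratios, a robust prior (statmod 1.5.0), the methods' t-test, stricter thresholds, leaving out each array, and, added after the data were seen, leaving out the 6 arrays of wide spread. Promoters came from RefSeq (GRCr8). Plots were drawn with matplotlib 3.10.9 in Python 3.11.15.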

Additional observations from a re-analysis of the deposited data

Results flagged for a closer look

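The response differed between 6 h and 1 h by a test of that difference at 7 probes (limma, adjusted p under 0.05). On the log2 scale, 6 h minus 1 h, the differences were 2.34 for Inhba, 1.80 for Tnfaip6, 1.12 for Vgf at probe 1D09, 1.07 for the unnamed probe 7E10, 0.84 for Sod3, -0.96 for Ccl2 at probe 26C01 and -1.82 for the unnamed probe 17H06. At all 7 probes the 3 arrays of 6 h lay beyond the 3 of 1 h. Over all probes tested they all lay above at 6.63% and all below at 5.74%. The 7 were picked by their difference, so this separation adds no support. Over 19 alternatives the difference was past the threshold in 18 for 17H06 and Inhba, 17 for Tnfaip6, 10 for Vgf, 9 for Sod3 and 6 for Ccl2 and 7E10. With 3 arrays a group, single arrays were not tested for standing apart.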

How the results depend on the processing

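Against 7 called probes, 5 higher and 2 lower, and 5 called genes of the lists, array weights gave 22 probes (15 higher, 7 lower) and 11 genes of the lists, and the fit without the 6 wide arrays 15 and 10. The replicate block gave 3 and 2. The labels do not say whether the replicate numbers pair the arrays. Deviations of same-numbered arrays of 1 h and 6 h correlated at -0.03, -0.05 and 0.03, and not every array correlated best with its own number. With 3 arrays a time these values cannot decide whether the arrays were paired. A threshold of 0.01 gave 3 and 2, and a threshold of 0.05 with a difference of at least 1 left 3 genes of the lists. The methods' t-test called 0 probes and 0 genes of the lists, with 293 probes at an unadjusted p under 0.05. Scaling to a common spread called 6, 3 higher and 3 lower, and the 6 arrays alone 5, 4 higher and 1 lower. Leaving out an array gave 3 to 7 probes and 2 to 6 genes of the lists, 3 probes without array 3 of 1 h, 4 without array 2 of 1 h or of 6 h, and 2 genes of the lists without array 2 or 3 of 1 h or 1 or 2 of 6 h. Without array 1 of 6 h 2 probes were called higher and 3 lower. The 258 probes with an unadjusted p under 0.05 became 440 without array 2 of 6 h, 409 without the wide arrays and 408 when scaled. Centring moved the median of all probes by under 0.1. The cause of these changes was not tested. Differences that turned were all small. Scaled, Arg1 was at -0.012 and Fgfr1 48E12 at -0.017. With plate medians, Igfbp5 36B10 was at 0.026 and Fgfr1 48E12 at -0.036. With array weights Igfbp5 49C01 was at -0.10. Without the wide arrays Igfbp5 36B10 was at 0.070, Igfbp5 49C01 at -0.15 and Gap43 at 0.0064. With an array left out the ranges were -0.15 to 0.28 for Igfbp5 49C01, -0.49 to 0.070 for 36B10, -0.052 to 0.13 for Mt1 52G03, -0.16 to 0.18 for Arg1, -0.020 to 0.092 for Fgfr1 48E12, -0.14 to 0.096 for Fbln5, -0.084 to 0.26 for Egr1 and -0.18 to 0.0064 for Gap43. Ratios carry no signal over background, so what dim spots limit could not be read.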
